A study of Mus musculus with 10 samples.

Results

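MLL-AF9-ieGFP is the control clone of the study, and its libraries were compared between 72 h and 48 h of culture. The members are the 4 libraries of this clone, of 10 in the series: 1 without and 1 with doxycycline (DOX, 5 µg/mL) at each time, so that 2 libraries at 72 h stand against 2 at 48 h with DOX status as a block. The cells are C57BL/6 bone marrow cells enriched for hematopoietic stem and progenitor cells (HSPCs) and transformed by retroviral MLL-AF9, a fusion oncogene of acute myeloid leukemia, and they grew in liquid medium with stem cell factor, GM-CSF and the interleukins IL-3 and IL-6. All 4 cultures also carry tetR-KRAB, which holds the inducible promoter silent, and a lentiviral vector that expresses eGFP once DOX is added. The other 6 libraries come from 3 MLL-AF9-i139 clones, in which DOX induces miR-139 in place of eGFP.

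The labels set the times of the libraries with DOX as hours of treatment, so in these libraries longer culture and longer exposure to DOX cannot be told apart. By their labels the libraries without DOX differ in time only. They also differed in ribosomal RNA, as given below, and whether they were otherwise alike is not stated. Cell number at harvest and any change of medium are not given in the sources used here. All 4 libraries come from 1 clone, and nothing says that the cultures of a time were set up independently, so the p-values cover the spread between these libraries only and may be technical.

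Cells that are kept in one medium multiply, use up amino acids and glucose and change the cytokine supply. Dividing cells make histone mRNA in S phase, ATF4 raises amino acid synthesis genes when amino acids run short or initiation of translation is restrained, and myeloid progenitors that mature fill first primary and then secondary granules with proteins from separate sets of genes. The lists described here follow these processes. RNA was depleted of ribosomal RNA and not selected for poly(A), so histone mRNAs without a poly(A) tail are measured too.

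The total count was between 35133308 and 45858788 per library, and 3 counts correspond to between 0.0654 and 0.0854 CPM (counts per 1000000 counts). The 72 h library without DOX stood apart in ribosomal RNA, with 289 CPM of its unscaled total on nuclear and mitochondrial rRNA genes, beside 28.0 at 48 h without DOX and 50.4 and 22.9 at 48 h and 72 h with DOX. Its part in the results was not tested, and the change with DOX, which does not use this library, is given beside the lists with the most calls.

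Markers of other lineages were low or near 0 in the 4 libraries. No stroma gene reached 10 counts, the 2 lymphoid genes tested summed to between 0.689 and 1.5 CPM, and the 5 erythroid and megakaryocyte genes to between 11.6 and 14.8 CPM. Of the surface markers the study uses, Kit, the stem cell factor receptor, was measured at 136 and 149.8 CPM at 48 h and 148 and 169 CPM at 72 h, and Fcgr3 at 92.7 and 89.4 and then at 94.4 and 90.6 CPM. The Ly6g level, a marker of mature neutrophils, was between 1.21 and 1.66 CPM, and Kit, Fcgr3 and Ly6g were not called. Cd3e and Itgam had at most 1 count per library. For Itgam this says little, because 99.9% of its body lies within other annotated genes, and other genes whose bodies lie wholly within others, such as Slc7a5 and Tk1, were also listed at 0.

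At 72 h, genes of DNA packaging, amino acid supply and myeloid granules held larger shares of calls upwards than all genes, and 4 of 9 heat shock genes fell. Of 17757 genes tested, 1100 rose (6.19%) and 1412 fell (7.95%) at an adjusted p under 0.05 in edgeR's quasi-likelihood test, together 14.1%. Most changes were small. The median absolute change of the called genes was 0.32 on the log2 scale, and 180 of them changed by at least 2-fold, 64 upwards and 116 downwards. The direction was the same with and without DOX for 2490 of the 2512 called genes, and in 2455 of them the libraries of the 2 times did not overlap. Both counts are largely set by the selection, since genes were called on the change over both DOX states together. Among all genes tested, both 72 h libraries lay above both 48 h libraries in 25.8% and below them in 26.3%.

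**Figure D1:**
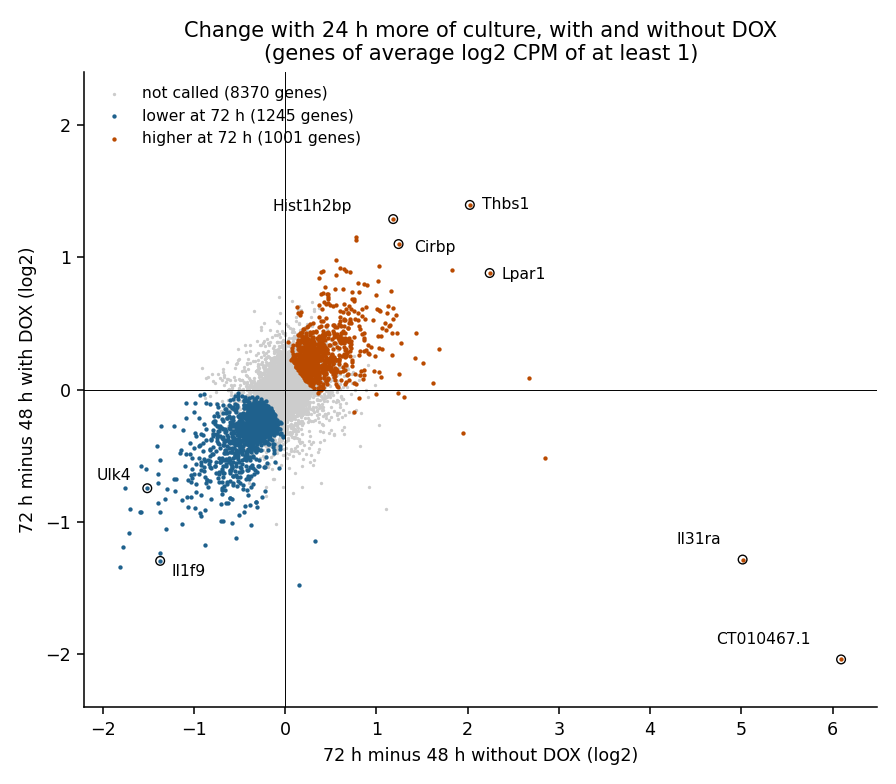
Log2 change from 48 h to 72 h without DOX (horizontal axis) and with DOX (vertical axis) for the 10616 genes with an average log2 CPM of at least 1, 1 point per gene, coloured by the call in the blocked edgeR test. The 1001 genes called higher and 1245 called lower spread along the diagonal, while CT010467.1 and Il31ra lie far to the right and below 0 because only the 72 h library without DOX was high.

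Across the 10616 genes with an average log2 CPM of at least 1, the change with DOX and the change without DOX had a Pearson's r of 0.583, and across all 17757 genes tested it was 0.233, a description across genes that share the 4 libraries. A test of the difference between the 2 changes, with the spread taken from all 10 libraries, called 0 genes in edgeR, with 220 at an unadjusted p under 0.05. Since that spread gave 0 calls for time itself, this says nothing about whether the changes were alike. In the same 4-library fit the DOX contrast called 123 genes, or 0.693%.

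The spread behind these calls rests on 1 residual degree of freedom, and edgeR then assigned genes of a given level the same spread, so that a gene high in only 1 library can pass. CT010467.1, an rRNA gene at 3.12 and 16.3 CPM at 48 h and 217 and 3.93 CPM at 72 h, had an adjusted p of 2.69e-117 in edgeR and 0.75 in DESeq2. DESeq2 called 553 genes, 2.39% of the 10527 genes with an adjusted p higher and 2.86% lower, each of the 553 in the direction edgeR gave. With the spread taken from all 10 libraries, 0 genes passed in edgeR (1962 at an unadjusted p under 0.05, and 553 by DESeq2 on the 4 libraries), and with any 1 of the 4 libraries left out 0 passed. For this reason the values of each library stand before the tests below, in the order without and with DOX, and the DESeq2 adjusted p stands beside that of edgeR for leading genes. CPM are scaled by TMM factors, and a change is the log2 difference of 72 h from 48 h with its standard error.

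Among the 12 genes with the smallest p that rose, the 4 changes of at least 2-fold belonged to a secreted matrix protein, a lysophosphatidic acid receptor, an H2B histone gene and an RNA-binding protein, and the others included a linker histone and regulators of myeloid cells. Thbs1 (chromosome 2, 118111876 to 118127133 in GRCm38) encodes thrombospondin 1, a secreted matrix glycoprotein. It measured 157 and 190.1 CPM at 48 h and 638 and 499.6 CPM at 72 h. Both cultures at 72 h lay far above both at 48 h, a rise of 1.71 ± 0.05 (SE, n = 2 libraries per time; adjusted p = 2.21e-205 in edgeR and 8.47e-06 in DESeq2). Cirbp, an RNA-binding protein that is known to rise in mild cold, measured 13.3 and 15.0 CPM and then 31.6 and 32.2 CPM, a rise of 1.17 ± 0.08 (adjusted p = 2.65e-41 and 7.16e-14). H1f0, the linker histone that non-dividing and differentiating cells accumulate, went from 84.8 and 90.1 to 132 and 153 CPM, a rise of 0.70 ± 0.06 (adjusted p = 1.02e-29 and 2.08e-14). The libraries of the 2 times did not overlap for Cirbp or H1f0.

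Hhex, a homeodomain regulator of early hematopoietic cells, rose by 0.92 ± 0.08, from 16.2 and 16.6 to 32.9 and 29.3 CPM. The corepressor gene Tgif1 went from 16.1 and 24.1 to 36.4 and 34.8 CPM, and Il17ra, a cytokine receptor subunit, from 33.3 and 37.9 to 68.2 and 57.5 CPM. Dgke, a diacylglycerol kinase, rose by 0.81 ± 0.08, and Lpar1, the lysophosphatidic acid receptor, by 3.03-fold, from 1.72 and 2.49 to 8.34 and 4.63 CPM. The changes of Tgif1 and Lpar1 were larger without DOX, and these 2 of the 12 genes did not pass in DESeq2 (adjusted p = 0.0986 and 0.148). The remaining rises, Hist1h2bp, Ngp, Elane and Asns, belong to lists described below, and in all 12 the 72 h libraries lay above the 48 h libraries.

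The 12 falls with the smallest p ranged from -1.34 to -0.52 and included regulators of transcription, chromatin and lipid or ion handling. Rsrp1, a gene for an arginine- and serine-rich protein, measured 153 and 138 CPM at 48 h and 79.7 and 88.8 CPM at 72 h, a fall of -0.79 ± 0.06 (adjusted p = 5.65e-38 in edgeR and 0.000202 in DESeq2). Il1f9, which encodes the cytokine IL-36 gamma, dropped from 6.91 and 13.7 to 2.65 and 5.56 CPM, the largest fall of the 12 at -1.34 ± 0.13. Hdac9, a class IIa histone deacetylase, measured 63.7 and 72.2 and then 39.3 and 42.7 CPM, a change of -0.73 ± 0.07. Tfec, which belongs to the MiT/TFE family of lysosomal regulators, measured 81.9 and 89.0 and then 55.3 and 56.6 CPM, a change of -0.61 ± 0.06. Creb3l2, a membrane-bound transcription factor of the secretory pathway, changed by -0.75 ± 0.08, and the zinc finger genes Zbtb40 and Thap2 by -0.69 ± 0.07 and -0.88 ± 0.09. The kinase genes Ulk4 (-1.12 ± 0.11) and Mapk4 (-0.77 ± 0.08), the glycosyltransferase B4galt6 (-0.74 ± 0.07), the ion exchanger Slc24a3 (-0.59 ± 0.06) and the chaperone Hsph1 completed them. The 72 h libraries lay below the 48 h libraries in all 12, and all but Ulk4 and Mapk4 passed in DESeq2.

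Replication-dependent histone genes rose as a group. These genes encode the core and linker histones that package newly made DNA, and most of those tested (53 of 61) lie on chromosome 13. Of 61 tested, 45 rose (73.8%, beside 6.19% of all genes) and 1 fell, and their median change was 0.30, at 0.33 without DOX and 0.27 with DOX, beside 0.00 for all genes. The summed level went from 9337 and 10370 CPM at 48 h to 11690 and 12130 CPM at 72 h. Every class took part: 4 of 6 H1 genes, 11 of 16 H2A, 12 of 17 H2B, 9 of 10 H3 and 9 of 12 H4 genes rose, with class medians between 0.25 and 0.37. DESeq2 called 40 of the 61 higher and 0 lower. The share of each library's counts that fell on histone genes was 0.945% and 1.05% at 48 h and 1.16% and 1.19% at 72 h.

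**Figure D2:**
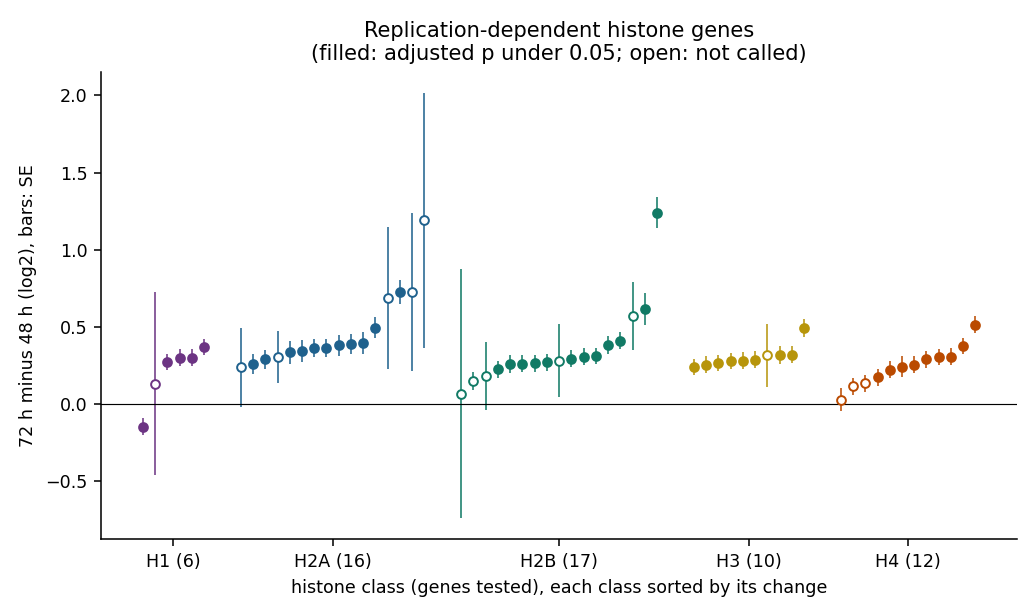
Log2 change from 48 h to 72 h (vertical axis, bars are SE, n = 2 libraries per time) of the 61 replication-dependent histone genes tested, grouped by class and sorted within it, filled where the adjusted p was under 0.05. Hist1h1a lies below 0 and Hist1h2bp is the highest filled point.

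The largest called change in the group belonged to Hist1h2bp (chromosome 13, 21787461 to 21789213), an H2B gene, at 8.12 and 8.43 CPM at 48 h and 18.5 and 20.6 CPM at 72 h. That was a rise of 1.24 ± 0.10 (adjusted p = 3.34e-31 in edgeR and 4.12e-10 in DESeq2). Hist1h2an, an H2A gene, went from 19.7 and 22.0 to 35.2 and 33.5 CPM, although 35.9% of its body lies within another annotated gene. Hist4h4 rose by 0.51 ± 0.05, from 135 and 176 to 213 and 227 CPM, and Hist1h3i by 0.49 ± 0.06, from 88.6 and 102 to 135 and 133 CPM. The most abundant member, Hist1h4d, rose by 0.22 ± 0.05, from 683 and 767 to 847 and 843 CPM. Hist1h1b, a linker histone of proliferating cells, rose by 0.37 ± 0.05, and Hist1h1a, named after its values were seen, was the single member that fell, from 373 and 358 to 335 and 325 CPM (-0.15 ± 0.05; adjusted p = 0.0412 in edgeR and 0.189 in DESeq2). Histone genes are near-identical copies of each other, so counts may be shared between members of a class.

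Other cell cycle genes moved less. Of 32 DNA replication genes tested, 7 rose (21.9%, beside 6.19% of all genes) and 0 fell, with a median of 0.09, and DESeq2 called 4 higher. Ccne1, the cyclin that starts S phase, measured 28.3 and 28.9 CPM and then 36.6 and 38.4 CPM (0.39 ± 0.07; adjusted p = 8.17e-06 and 0.021 in DESeq2). Ung and Dut, enzymes that keep uracil out of DNA, rose by 0.34 ± 0.07 and 0.25 ± 0.06, and the helicase subunit Mcm4 by 0.23 ± 0.05. Of 29 mitosis genes, 3 rose and 3 fell (10.3% each, beside 6.19% and 7.95% of all genes), and DESeq2 called 1 higher and 0 lower. Cdk1, the mitotic kinase, went from 137 and 146 to 188 and 171 CPM (0.35 ± 0.06) and its cyclin Ccnb1 rose by 0.21 ± 0.06, whereas the checkpoint kinase Bub1 went from 95.2 and 97.5 to 81.2 and 84.2 CPM (-0.22 ± 0.06). Of 6 G1 cyclins and kinases, Ccnd2 (0.37 ± 0.06) and Ccnd3 (0.19 ± 0.06), both D-type cyclins, rose (33.3% of this short list), and DESeq2 called 1 higher.

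Genes of cell cycle arrest and quiescence did not move one way. Of 22 tested, 2 rose (9.09%, beside 6.19% of all genes) and 4 fell (18.2%, beside 7.95%), with a median of -0.03. DESeq2 called 0 of them, and the fit without the block called 0 higher and 1 lower. Foxo1, a transcription factor that is held out of the nucleus by growth factor signals, fell from 4.09 and 3.98 to 2.3 and 2.22 CPM (-0.83 ± 0.18; adjusted p = 0.000116 in edgeR and 0.149 in DESeq2), and Pik3ip1, an inhibitor of PI3 kinase, fell by 0.30 on the log2 scale. Of 11 genes of the MYC network tested, the MYC antagonist Mnt rose by 0.51 ± 0.07 and 1 gene fell, shares of 9.09% each that are near those of all genes. Of 29 ribosome biogenesis genes 4 rose (13.8%) and 0 fell, with a median of 0.08. Of 80 cytosolic ribosomal protein genes 4 rose (5.00%, near the 6.19% of all genes), with Rpl29 at 0.18 ± 0.05 as the smallest p. The median of these 80 was 0.09, at 0.04 without DOX and 0.14 with DOX. Their small changes were mostly upwards, with 77 above 0 (63 without DOX, 79 with DOX), beside 8901 of 17757 genes. In 59 of the 80 both 72 h libraries lay above both 48 h libraries, beside 25.8% of all genes, and DESeq2 called 0.

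Genes of amino acid supply rose together. ATF4 is the transcription factor that raises genes for amino acid synthesis, import and tRNA charging, and it binds with C/EBP partners to a composite site that holds the letters TGATGNAA. Of 26 genes tested on the list of ATF4-dependent genes, 18 rose (69.2%, beside 6.19% of all genes) and 2 fell. Their median change was 0.30, at 0.24 without DOX and 0.34 with DOX. In 19 of the 26 both 72 h libraries lay above both 48 h libraries, beside 25.8% of all genes. DESeq2 called 11 higher and 0 lower. Slc6a9, Slc7a5 and Vldlr, of the 29 genes listed, were at 0 in the 4 libraries.

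Promoter windows from RefSeq (GRCm38.p6, 250 bases before to 50 after the gene's start) are shown for 3 of the genes that rose and for Slc7a11, which fell, since they hold the letters of the ATF4 site in different places; Chac1 and Slc7a11 were chosen after their values were seen. Each runs 5′ to 3′ on the gene's strand, with matches to TGATGNAA on either strand in capitals. The windows are chr6:7693160-7693459 on the minus strand for Asns, chr2:119350992-119351291 on the plus strand for Chac1, chr6:55037751-55038050 on the plus strand for Gars and chr3:50443564-50443863 on the minus strand for Slc7a11.
Asns: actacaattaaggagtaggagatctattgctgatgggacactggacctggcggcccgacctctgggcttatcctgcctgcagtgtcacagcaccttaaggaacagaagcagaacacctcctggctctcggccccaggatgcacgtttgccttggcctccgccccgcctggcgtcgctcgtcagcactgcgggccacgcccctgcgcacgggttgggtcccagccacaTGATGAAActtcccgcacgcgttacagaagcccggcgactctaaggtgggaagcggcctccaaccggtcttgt
Chac1: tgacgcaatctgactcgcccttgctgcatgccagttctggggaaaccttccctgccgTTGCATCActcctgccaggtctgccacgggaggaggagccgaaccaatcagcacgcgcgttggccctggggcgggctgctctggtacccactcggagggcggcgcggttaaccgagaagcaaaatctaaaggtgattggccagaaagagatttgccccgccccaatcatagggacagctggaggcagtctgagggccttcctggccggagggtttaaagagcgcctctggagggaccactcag
Gars: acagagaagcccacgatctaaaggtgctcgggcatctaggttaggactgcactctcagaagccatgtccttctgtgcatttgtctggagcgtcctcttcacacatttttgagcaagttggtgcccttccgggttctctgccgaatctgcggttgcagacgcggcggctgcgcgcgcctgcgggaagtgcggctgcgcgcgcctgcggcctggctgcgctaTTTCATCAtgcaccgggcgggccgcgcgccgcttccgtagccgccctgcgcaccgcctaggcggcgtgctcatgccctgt
Slc7a11: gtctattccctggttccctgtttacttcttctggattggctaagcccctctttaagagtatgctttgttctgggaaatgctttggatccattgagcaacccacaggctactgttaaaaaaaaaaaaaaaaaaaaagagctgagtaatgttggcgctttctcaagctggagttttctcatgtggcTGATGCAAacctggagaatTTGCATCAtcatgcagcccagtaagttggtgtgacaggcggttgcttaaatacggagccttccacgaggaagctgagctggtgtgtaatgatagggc
The match in Asns begins 23 bases before the start and that in Gars 30 bases before it, on the opposite strand, while Chac1 holds it 193 bases before the start. The Slc7a11 window holds 2 matches on opposite strands, 66 and 47 bases before the start. The letters occur in 4.51% of the 27025 genes with a window. They occur in 7 of the 24 ATF4 list genes that had a window (29.2%), and in 5 of the 17 that rose among them (29.4%). Of 12 tRNA synthetase genes with a window 5 hold them, 4 of the 5 that rose among them. A list with few calls can hold the letters of its own site as often. TTTGAA, scanned for mitosis genes, occurs in 68.0% of those with a window, beside 20.2% of all genes. Whether the letters are related to the rise at 72 h was not tested. A match is a description of the letters and not a bound site.

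Asns (chromosome 6, 7675169 to 7693254), asparagine synthetase, measured 75.9 and 81.9 CPM at 48 h and 105 and 135 CPM at 72 h. It was higher in both 72 h libraries, by 0.46 without DOX and 0.72 with DOX, together 0.59 ± 0.06 (adjusted p = 1.69e-20 in edgeR and 1.85e-08 in DESeq2). Stc2, a secreted glycoprotein that is induced by stress, went from 45.8 and 53.8 to 63.5 and 86.5 CPM (0.58 ± 0.07), and Gpt2, the mitochondrial alanine transaminase, from 15.5 and 17.3 to 21.5 and 27.3 CPM (0.56 ± 0.09). Cth, the enzyme that makes cysteine from cystathionine, was low, at 0.452 and 0.906 CPM at 48 h and 0.748 and 4.36 CPM at 72 h. Its change of 1.75 ± 0.27 was carried by the 72 h library with DOX, the groups overlapped, and DESeq2 gave it no adjusted p.

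Atf4 itself measured 225 and 237 CPM at 48 h and 287 and 292 CPM at 72 h, a rise of 0.33 ± 0.05 (adjusted p = 8.62e-08 in edgeR and 9.22e-05 in DESeq2). The serine pathway enzymes Phgdh (201 and 203, then 246 and 262 CPM) and Psat1 (233 and 241, then 274 and 302 CPM) rose by 0.33 ± 0.05 and 0.28 ± 0.05. Chac1, which degrades glutathione, went from 2.58 and 3.55 to 4.46 and 7.84 CPM (0.98 ± 0.15), and Xpot, the tRNA exporter, rose by 0.19 ± 0.05. Atf4, Phgdh and Chac1 were named after their values were seen, as were the 2 members that fell. These were Cebpg, a C/EBP partner of ATF4 (21.1 and 24.0, then 16.7 and 19.1 CPM; -0.33 ± 0.09), and Slc7a11, the cystine importer. Slc7a11 measured 147 and 246 CPM at 48 h and 145 and 192 CPM at 72 h, so the groups overlapped and its change was -0.02 without DOX and -0.36 with DOX (adjusted p = 0.00678 in edgeR and 0.658 in DESeq2).

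Cytosolic tRNA synthetases, which charge tRNAs with amino acids, followed with smaller changes. Of 19 tested, 10 rose (52.6%) and 0 fell, with a median of 0.19, at 0.17 without DOX and 0.19 with DOX, and DESeq2 called 7 higher. Their summed level was 3849 and 3838 CPM at 48 h and 4222 and 4342 CPM at 72 h. Gars, for glycine, went from 243 and 239.7 to 289.6 and 301 CPM (0.29 ± 0.05; adjusted p = 2.15e-06 and 0.000775 in DESeq2). Yars, for tyrosine, rose by 0.28 ± 0.06, Vars, for valine, by 0.25 ± 0.05, and Eprs, the largest in level, by 0.20 ± 0.05. The change of Gars was the largest of the 10.

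**Figure D3:**
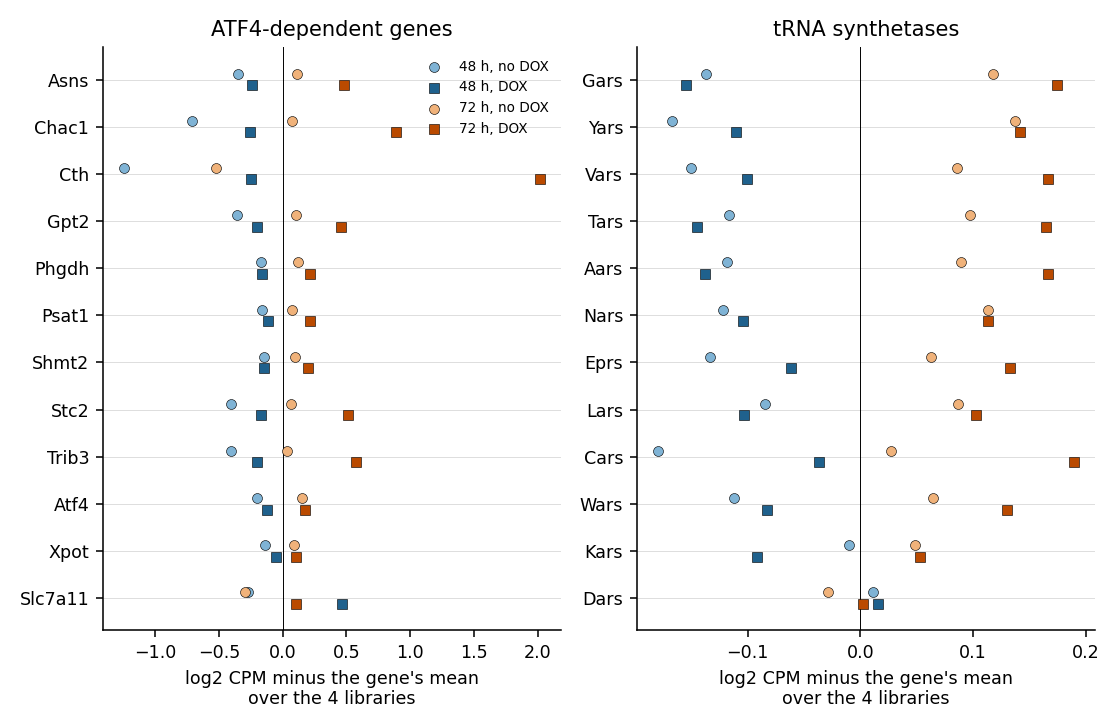
Log2 CPM of each library minus the gene's own mean over the 4 libraries (horizontal axis, log2 units) for 12 ATF4-dependent genes (left) and 12 tRNA synthetase genes (right), circles without and squares with DOX, blue at 48 h and orange at 72 h. For most genes both orange points lie to the right of both blue points, with exceptions for Cth, Slc7a11 and Dars.

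Granule genes of myeloid cells rose as well. Primary granule proteins are made by promyelocytes and act as proteases and oxidants in neutrophils. Of 11 genes tested, 6 rose (54.5%) and 0 fell, and DESeq2 called 3 higher. Their median change was 0.22, at 0.21 without DOX and 0.20 with DOX. Elane (chromosome 10, 79886247 to 79888215), neutrophil elastase, measured 1069 and 1199 CPM at 48 h and 1480.0 and 1949 CPM at 72 h. Both 72 h libraries were higher, a rise of 0.59 ± 0.05 (adjusted p = 1.69e-23 in edgeR and 0.034 in DESeq2). Ctsg, cathepsin G, went from 757 and 794 to 978 and 1233 CPM (0.50 ± 0.05), and Prtn3, proteinase 3, from 411 and 417 to 477 and 572 CPM (0.33 ± 0.05), though neither passed in DESeq2 (adjusted p = 0.0657 and 0.154). Mpo, myeloperoxidase, measured 515 and 696 CPM at 48 h and 636 and 912 CPM at 72 h. Its groups overlapped because DOX libraries were higher at both times, and within DOX status it rose by 0.31 and 0.39 (adjusted p = 7.14e-09 and 1.67e-06 in DESeq2). Ms4a3 and Ctsc, named after their values were seen, rose by 0.33 ± 0.07 and 0.22 ± 0.07.

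Genes of secondary and later granules and of mature neutrophils summed to 1063 and 997.4 CPM at 48 h and 1157 and 1156 CPM at 72 h. This was below the 3861 and 4186 CPM of the primary granule genes at 48 h. Of 19 tested, 6 rose (31.6%) and 1 fell, and DESeq2 called 5 higher and 0 lower. Their median change was 0.13 without DOX and 0.21 with DOX. Ngp, neutrophilic granule protein, went from 63.4 and 78.1 to 103 and 121 CPM (0.66 ± 0.06; adjusted p = 1.24e-24 and 4.33e-12 in DESeq2). Camp, the cathelicidin gene, rose from 5.56 and 5.33 to 8.74 and 10.1 CPM (0.78 ± 0.13), and Cd177, a neutrophil surface protein, from 17.2 and 17.1 to 25.5 and 26.7 CPM (0.60 ± 0.08). The calcium-binding proteins S100a8 (100.3 and 90.6, then 124 and 119 CPM) and S100a9 (114 and 97.2, then 130.2 and 133 CPM) rose by 0.35 ± 0.06 and 0.32 ± 0.06. Mmp8, a collagenase named after its values were seen, fell from 0.452 and 0.528 to 0.144 and 0.214 CPM, a handful of counts per library that DESeq2 gave no adjusted p. Of 16 monocyte and macrophage genes 1 rose and 0 fell, which is near the background.

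**Figure D4:**
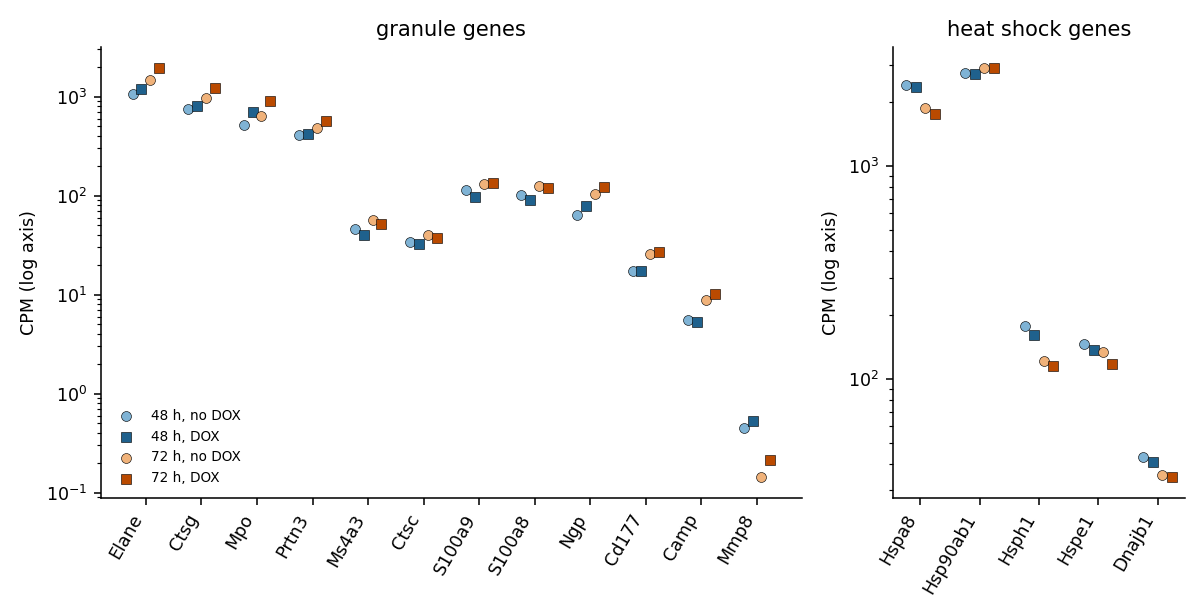
CPM in each of the 4 libraries (log axes) of 12 granule genes (left) and 5 heat shock genes (right), circles without and squares with DOX, blue at 48 h and orange at 72 h. Elane, Ctsg, Ngp and Camp were higher in both 72 h libraries, Mpo overlapped, and Hsph1 and Hspa8 were lower in both 72 h libraries.

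Transcription factors of the myeloid lineage had few calls. Of 12 tested, 0 rose, which is near the 6.19% of all genes for a list this short. Of the 12, 3 fell (25.0%, beside 7.95% of all genes), and DESeq2 called 0 higher and 1 lower. Cebpb and Cebpd, C/EBP factors of inflammatory and maturing myeloid cells, went from 73.8 and 71.1 to 62.2 and 56.1 CPM (-0.29 ± 0.07; adjusted p = 0.000185 and 0.036 in DESeq2) and from 40.6 and 41.0 to 32.9 and 31.8 CPM (-0.34 ± 0.07), although 60.4% and 48.3% of their bodies lie within other genes. Gfi1, a repressor that neutrophil development needs, fell by 0.18 on the log2 scale. Of 17 genes of the progenitor and MLL-AF9 program, 3 rose and 3 fell (17.6% each), and DESeq2 called 0 higher and 2 lower. Pbx3, a cofactor of HOXA9, measured 184 and 190.4 and then 162 and 138 CPM (-0.32 ± 0.06), and Runx1, a master regulator of hematopoietic stem cells, 399.9 and 411 and then 315 and 349.8 CPM (-0.29 ± 0.05). Hoxa7, itself a target of MLL fusions, rose by 0.30 ± 0.07 and Gata2, a stem cell factor, from 2.46 and 2.21 to 4.17 and 3.58 CPM (0.73 ± 0.18). Mef2c, a transcription factor named after its values were seen, fell from 2.69 and 3.75 to 2.07 and 1.82 CPM. The levels of Hoxa9 (96.5 and 102, then 114 and 104 CPM) and Meis1 (82.7 and 90.1, then 81.8 and 74.0 CPM) were not called.

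Of the lists described here, heat shock genes had the largest share of falls. Of 9 tested, 0 rose and 4 fell (44.4%, beside 7.95% of all genes), whereas DESeq2, and edgeR on thinned counts, called 2 lower. Hsph1 (chromosome 5, 149614287 to 149636376), a cochaperone that recharges HSP70, measured 178 and 161 CPM at 48 h and 122 and 115 CPM at 72 h (-0.52 ± 0.06; adjusted p = 1.41e-17 in edgeR and 2.53e-09 in DESeq2). Hspa8, the constitutive HSP70, went from 2417 and 2364 to 1874 and 1754 CPM (-0.40 ± 0.06), and the cochaperones Dnajb1 and Hspe1 changed by -0.26 ± 0.07 and -0.17 ± 0.06. For these 4 genes both 72 h libraries were below both 48 h libraries. The median of the list was -0.07, at -0.02 without DOX and -0.16 with DOX, and 3 of the 9 lay above 0. Of 15 chaperone and unfolded protein response genes of the endoplasmic reticulum, 0 rose and 2 fell (13.3%), with a median of -0.02, and DESeq2 called 0. They were Dnajb9 (15.1 and 14.4, then 10.4 and 10.2 CPM; -0.52 ± 0.10) and Xbp1, the transcription factor of that response (-0.19 ± 0.05).

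Genes that cytokine signals switch on had calls in both directions, and both counts depended on the fit. Of 26 targets of STAT5 and MAPK signalling tested, 8 rose (30.8%, beside 6.19% of all genes) and 4 fell (15.4%, beside 7.95%). DESeq2 called 4 higher and 0 lower, the fit without the block 5 and 1, and thinned counts 6 and 1. The other edgeR fits of all 4 libraries alone kept 4 falls, with between 7 and 9 rises. The fit of 8 libraries without i139 clone 3 called 6 higher and 3 lower. Osm, the cytokine oncostatin M, went from 6.33 and 6.84 to 14.0 and 9.57 CPM (0.82 ± 0.12; adjusted p = 3.72e-10 in edgeR and 0.0108 in DESeq2). Ier3, an early response gene, and Dusp6, a phosphatase that limits ERK, rose by 0.81 ± 0.13 and 0.52 ± 0.09. The rise of Osm, Ier3 and Dusp6 was larger without DOX (1.14, 1.27 and 0.81) than with it (0.48, 0.35 and 0.26), a difference on which the 10-library test says nothing. Pim1, a survival kinase, rose by 0.31 ± 0.05, from 158 and 162 to 192 and 204 CPM. Jun, a component of AP-1, and Il2ra, a cytokine receptor chain, both named after their values were seen, fell from 22.4 and 18.0 to 16.1 and 13.3 CPM and from 2.56 and 1.79 to 1.41 and 0.989 CPM.

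Of 16 hypoxia response genes, 5 rose (31.2%, beside 6.19% of all genes) and 2 fell (12.5%, beside 7.95%), with a median of 0.15, and DESeq2 called 1 higher and 1 lower. Egln3, an oxygen-sensing hydroxylase, went from 37.3 and 41.7 to 51.1 and 51.7 CPM (0.38 ± 0.07), and Pdk1, which turns pyruvate away from mitochondria, and Vegfa, an angiogenic factor, rose by 0.25 ± 0.07 and 0.19 ± 0.06. P4ha1, a collagen hydroxylase, and Fam162a, a mitochondrial protein, fell by 0.32 and 0.25 on the log2 scale. Of 19 glycolysis genes, the lactate exporter Slc16a3 (0.23 ± 0.05) and the lactate dehydrogenase Ldha (0.16 ± 0.05) rose (10.5%) and 0 fell, with a list median of -0.01. Gapdh was not called, and Actb rose by 0.16 ± 0.06. Among 13 protein-coding genes of the mitochondrial genome, 2 rose (15.4%) and DESeq2 called 0. They were led by mt-Nd1 (1165 and 1732, then 1646 and 1907 CPM), whose groups overlapped.

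The remaining nutrient and stress lists differed in their share of calls. Of 35 lysosome and autophagy genes, 2 rose and 3 fell, a share near that of all genes. Mitf, a relative of Tfec, and Flcn, a regulator of lysosomal mTORC1 signals, fell by 0.35 and 0.34, and the protease Ctsl rose by 0.34 ± 0.07. Of 15 NRF2 targets, 3 rose (20.0%, beside 6.19% of all genes) and 4 fell (26.7%, beside 7.95%), with a median of -0.03, and DESeq2 called 0 higher and 1 lower. Cat, catalase, went from 54.1 and 63.7 to 41.7 and 53.6 CPM (-0.31 ± 0.07), and Gclc and Nqo1, of glutathione and quinone metabolism, fell by 0.22 and 0.34 on the log2 scale, while Hmox1, heme oxygenase, rose by 0.44 ± 0.14. Of 13 fatty acid synthesis genes 3 rose (23.1%) and 0 fell, with 0 called by DESeq2, and of 7 LXR targets 0 were called.

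Of 17 p53 targets, which act in cell cycle arrest and cell death, 5 rose (29.4%, beside 6.19% of all genes) and 0 fell, and DESeq2 called 0 of them. Bbc3, which encodes the death inducer PUMA, went from 11.3 and 10.1 to 14.0 and 13.7 CPM (0.37 ± 0.10), and Zmat3 and Mdm2, the latter the main inhibitor of p53, rose by 0.25 ± 0.07 and 0.19 ± 0.06. Of 11 genes of the BCL2 family, 2 rose and 2 fell (18.2% each), and DESeq2 called 0. The survival gene Bcl2 measured 23.3 and 29.8 and then 17.9 and 22.3 CPM (-0.40 ± 0.08). Of 15 NF-kB targets and chemokines 1 rose (6.67%, near the 6.19% of all genes), and of 17 interferon response genes 2 fell (11.8%, beside 7.95%). Of 13 cytokine receptors 3 rose (23.1%), and DESeq2 called 1 higher. Each of these 3 lists had 0 calls in the other direction, which for lists this short is near the shares of all genes. Of 82 nuclear genes of the respiratory chain 4 rose and 0 fell, and of 69 mitochondrial ribosomal protein genes 1 rose and 2 fell, shares below those of all genes. Of 5 mast cell and basophil genes and 3 eosinophil genes 0 were called, and of 5 erythroid and megakaryocyte genes 1 rose.

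**Figure D5:**
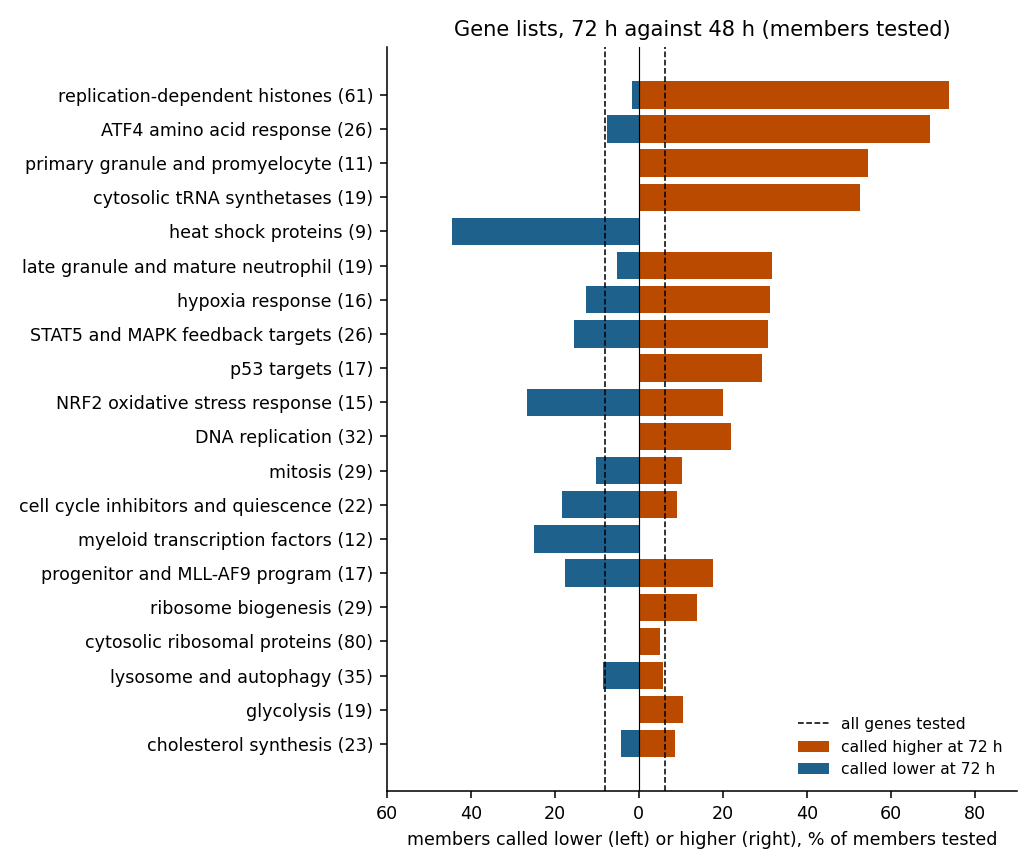
Share of the tested members of 20 gene lists called higher (to the right, %) and lower (to the left, %) at 72 h, with the number tested in brackets and dashed lines at the shares of all genes tested, 6.19% higher and 7.95% lower. Histone (73.8%) and ATF4 (69.2%) genes lie farthest to the right and heat shock genes (44.4%) farthest to the left.

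The i139 clones give values beside these that carry no test. With DOX, clone 3 was sampled at 72 h and clones 1 and 2 at 48 h. Time, clone and the duration of miR-139 induction therefore cannot be told apart there. No times are given for the i139 cultures without DOX. The median difference of clone 3 from the mean of clones 1 and 2 was 0.36 with DOX and 0.20 without for the genes called higher in MLL-AF9-ieGFP, and -0.28 and -0.22 for those called lower. For histone genes it was 0.58 and 0.32, and for ATF4-dependent genes 1.02 and 0.61, beside -0.01 and -0.01 for all genes tested. Some lists with small medians in MLL-AF9-ieGFP also differed in clone 3. Ribosome biogenesis genes lay at 0.53 and 0.08 and genes of cell cycle arrest and quiescence at -0.58 and -0.01, whereas cytosolic ribosomal protein genes lay at -0.05 and -0.05. Genes of primary granules lay at 0.36 and 0.12, but those of late granules at -0.77 and -0.29, opposite to the direction of the calls at 72 h in MLL-AF9-ieGFP. Heat shock genes lay at -0.06 and -0.18.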

How the data were processed

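Reads of the 4 MLL-AF9-ieGFP libraries (total RNA depleted of ribosomal RNA) were mapped by the authors to GRCm38 with STAR 2.5.3e and counted per gene with featureCounts 1.6.0 on a GENCODE annotation; the strand setting is not given in the sources used here. The deposited values are raw counts of 52550 genes, without normalization. A pair of deposited tables held the same values (0 differences), and 14 other columns of per-sample values were not used. Gene names and positions came from GENCODE M21 (52403 identifiers matched). How reads in overlaps of genes were treated is not given in the sources used here.

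Genes with at least 10 counts in total were tested with edgeR 4.0.16 (R 4.3.3; TMM, quasi-likelihood test, DOX status as block, Benjamini-Hochberg, threshold 0.05) on the 4 libraries. Changes within a DOX status used log2 CPM with a prior count of 2. DESeq2 1.42.0 was an alternative, and its missing adjusted p-values stayed missing (7230 genes). Other alternatives were no block, RLE size factors, other filters, counts thinned to 35133308, all 10 libraries, each library left out, and, chosen after seeing the data, robust and bias-adjusted fits and a fit without i139 clone 3. The interaction of time with DOX was tested over all 10 libraries.

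No list was given a test of its own: members called were counted beside all genes. The members, lists and tests were chosen with earlier results of these data known. Named genes were the 12 rises and 12 falls with the smallest p (average log2 CPM of at least 1, same direction with and without DOX, a symbol that is not a clone name), up to 4 members of a list by p and 2 by level, and the surface markers and reference genes. Others are said to be chosen after their values were seen. Some genes that the rule named are not reported here.

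DOX status pairs the libraries by their labels. Deviations of libraries of the same DOX status from their time's mean correlated with r = 0.0232 over genes. Libraries of a time, which also differ in DOX status, differed by more than sampling noise (chi-square per degree of freedom 8.14 at 48 h and 7.54 at 72 h). Each was counted as 1 sample, and these values do not show that the cultures were set up independently. An exact permutation of 2 against 2 libraries cannot give a p under 0.333. On simulated counts of 17434 genes with this design, edgeR made 193 calls, 3.63% of them false, and recovered 87% of changes of 0.5 and 99% of changes of 1 on the log2 scale. DESeq2 recovered 62% and 96%. Every simulated gene was drawn with the same dispersion, 0.00272, which is the equal spread that the 4-library fit assumes. The false share therefore does not carry over to the calls in the data, where genes such as CT010467.1 depart from that assumption. Counting error alone is behind the CPM of 3 counts given as the limit of detection. Python 3.11.15 with pandas 2.3.3 and matplotlib 3.10.9 was used for tables, promoter matches and figures.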

Additional observations from a re-analysis of the deposited data

Results flagged for a closer look

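Of the 2512 genes called between 72 h and 48 h, 22 moved in opposite directions with and without DOX, and 21 of these were higher at 72 h without DOX and lower with DOX. For 5 of them the change was at least 2-fold in each direction, which is why they are given here. The rRNA gene CT010467.1 changed by 6.09 without DOX and by -2.04 with DOX, a difference of 8.13 on the log2 scale (from 145 to 7530 counts in the untreated pair and from 648 to 147 in the treated pair). Il31ra, a cytokine receptor gene, changed by 5.01 and -1.28, a difference of 6.3, from 10 to 297 and from 21 to 7 counts. Tmtc2 changed by 4.22 and -1.21 (difference 5.43), Mir6236 by 3.07 and -2.02 (difference 5.08) and Camk1d by 2.89 and -1.2 (difference 4.09). The interaction of time with DOX, tested in edgeR over all 10 libraries, gave an adjusted p of 1.0 for each of the 5, but the spread of that fit gave 0 calls for time itself, so it does not show that the changes were alike. The 72 h library without DOX, which is the high one in all 5, also held an unscaled rRNA level of 289 CPM against 22.9 to 50.4 CPM in the other 3 libraries; its part in these differences was not tested.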

How the results depend on the processing

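The count of 2512 genes (1100 higher, 1412 lower) moved by over 1.5 times under some alternatives. Without the DOX block it was 1322 (540 higher, 782 lower), with DESeq2 553 (252 and 301), with thinned counts 1105 (468 and 637), and in 8 libraries without i139 clone 3 1463 (677 and 786). With all 10 libraries it was 0 higher and 0 lower, and with any 1 of the 4 libraries left out 0 in edgeR (451 to 1034 genes at an unadjusted p under 0.05; DESeq2 on the 4 libraries called 553). The fits with 1 library left out took the spread from all remaining libraries, so a lone library was assumed to vary like the others. Common dispersion was 0.00272 in the 4 libraries and 0.0119 in the 10; whether it is the cause was not tested. RLE size factors, other filters, robust and bias-adjusted fits gave between 2087 and 2656. The blocked fit called more genes than the unblocked one, in which 25 of the 111 named genes called lost their call. DESeq2 left 42 of them uncalled and gave 7 named genes no adjusted p. With 1 library left out, the fitted change is that of the remaining pair of 1 DOX status. These fits thus repeat the changes with and without DOX. The log2 change of CT010467.1 then ranged from -2.04 to 6.13 and that of Il31ra from -1.47 to 5.3. Camk1d ranged from -1.26 to 3.02, Tmtc2 from -1.6 to 4.97 and Mir6236 from -2.52 to 3.43. No other named gene changed sign in any alternative. This is largely set by the selection, since most named genes were called over both DOX states together. List medians kept their sign in every alternative for histone, ATF4, tRNA synthetase, granule and heat shock genes. The heat shock median was only -0.01 with a DOX library left out. Histone genes called higher stayed between 40 and 46 in the replicated fits of 4 or 8 libraries.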

Other observations

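Of 2023 long non-coding RNA genes tested, 61 rose (3.02%) and 145 fell (7.17%), whereas of 13504 protein-coding genes 991 rose (7.34%) and 1234 fell (9.14%). Of 1511 processed pseudogenes, 13 rose and 5 fell. Protein-coding genes called lower had longer bodies, with a median of 41845 bases from start to end, than those called higher (21928 bases) or those not called (24393 bases). Their median exonic length was 5583 bases, beside 4426 and 4244 bases. The average log2 CPM of these groups also differed, with medians of 4.84 for genes called lower, 5.6 for those called higher and 4.08 for those not called, and its part in the difference was not tested.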
